A study of Mus musculus with 24 samples.

Results

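Xenobiotic and bile acid sensing in the liver was followed through 8 listed genes: the nuclear receptors Nr1h4 (FXR), Nr1i2 (PXR), Nr1i3 (CAR), Nr1h3 (LXRalpha) and Rxra, the aryl hydrocarbon receptor Ahr, and the enzymes Por and Alas1. Of these, 6 of the 18820 genes that the array measures by name had a probe set of their own, 1 probe set each, so that no choice among probe sets arose. The probe set for Nr1i3 is also that of its neighbour Tomm40l and was given no value. Por, the electron donor of microsomal cytochromes P450, was paired with no probe set in the probe table and was not analysed here.

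FXR is the receptor for bile acids. It lowers bile acid synthesis, partly through the repressor Nr0b2 (SHP), and raises the export of bile acids and their conjugation. PXR and CAR sense drugs and other foreign compounds and turn on cytochromes P450, conjugating enzymes and transporters, LXRalpha senses oxysterols, and AHR senses planar aromatic compounds. The nuclear receptors of the list bind DNA with RXRalpha, the product of Rxra, and AHR binds it with ARNT. Alas1 encodes the rate-limiting enzyme of haem synthesis in liver, which supplies the prosthetic group of the cytochromes P450. It is itself induced through PXR and CAR, and its level follows the circadian clock.

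RNA from 24 mouse livers was hybridised to a whole-transcript Affymetrix array, 1 liver on each, in 8 groups of 3. Untreated livers at 52 weeks of age came from mice labelled control and from NEMO/JNKΔhepa triple knockouts. Livers labelled control and livers of JNKΔhepa double knockouts were collected 40 days into diethylnitrosamine (DEN), a hepatic carcinogen, and 28 days after bile duct ligation (BDL), a model of cholestasis; no age was given for these 4 groups. Untreated livers at 8 weeks came from NEMO single knockouts and NEMO/JNK1Δhepa double knockouts, so that both arms of that comparison are labelled as NEMO knockouts. Deletion was by Cre under the albumin promoter, active in hepatocytes, on a C57BL/6 background. The protocol describes JNKΔhepa mice as carrying floxed Jnk1 together with a germline Jnk2 deficiency, and names NEMOΔhepa and NEMOf/f mice as controls, without saying which control group is which. Each value came from a separate mouse identifier, and sex was not labelled.

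The targeted genes were read first. Mapk8 (JNK1) was lower in all 12 knockout livers than in every liver of their comparison group. Mapk9 (JNK2) lay between 2.82 and 3.51 in 18 livers, those labelled control included (9 livers), and between 7.99 and 8.53 in the 6 livers at 8 weeks. Mapk9 therefore lay in that low range in both arms at 52 weeks, after DEN and after BDL, whatever their label. Ikbkg (NEMO) fell by 0.85 on the log2 scale at 52 weeks (SE 0.15, limma adjusted p = 0.0043), from 7.30 to 6.45. At 8 weeks its level did not show the labelled NEMO loss: it was 7.07 ± 0.24 in NEMO and 6.92 ± 0.14 in NEMO/JNK1Δhepa livers (SD, n = 3 each), near the 7.14 to 7.39 of the groups labelled control in the other experiments, and no liver of that age was labelled NEMO-intact. The hepatocyte transcripts Alb and Ttr were between 12.75 and 13.31 and between 12.35 and 12.82 in every liver. Replicate 3 of JNKΔhepa after DEN stood apart, with Xist at 10.38 against 2.16 to 3.87 in the other 23 livers and 3 Y-linked genes at 2.80 to 3.66 against 5.82 to 7.96. Differences after DEN that involve it are given with and without it.

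The promoters of the 3 members on which the results turn are shown as the 250 bases before the RefSeq start, on assembly GRCm38.p6, written 5′ to 3′ on the gene's strand. Nr1h4 and Alas1 changed at 52 weeks, and Nr1i2 had the lower value in the knockout in each experiment. Capitals mark a match to the hexamer AGGTCA, the core of nuclear receptor sites, on either strand.
Nr1h4, chr10:89506659-89506908, minus strand: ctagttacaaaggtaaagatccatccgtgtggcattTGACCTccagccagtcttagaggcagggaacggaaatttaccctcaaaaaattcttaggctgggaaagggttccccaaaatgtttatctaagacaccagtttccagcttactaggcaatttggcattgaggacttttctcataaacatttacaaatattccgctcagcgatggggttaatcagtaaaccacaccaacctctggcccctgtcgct
Nr1i2, chr16:38294825-38295074, minus strand: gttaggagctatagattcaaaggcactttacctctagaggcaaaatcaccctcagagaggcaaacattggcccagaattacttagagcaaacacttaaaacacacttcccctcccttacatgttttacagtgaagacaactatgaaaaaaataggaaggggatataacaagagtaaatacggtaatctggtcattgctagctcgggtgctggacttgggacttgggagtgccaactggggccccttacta
Alas1, chr9:106247955-106248204, minus strand: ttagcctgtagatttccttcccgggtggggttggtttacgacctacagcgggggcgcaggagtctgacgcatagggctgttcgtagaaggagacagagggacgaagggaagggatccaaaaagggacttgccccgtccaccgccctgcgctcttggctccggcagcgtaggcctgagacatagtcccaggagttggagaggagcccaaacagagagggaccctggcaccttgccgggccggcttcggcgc
The Nr1h4 window holds 1 such hexamer, 214 bases before the start, and its start lies inside the annotated span of the gene. The Nr1i2 and Alas1 windows hold none. Of 32851 windows of this length in the promoter table, 14% hold at least 1 such match. The windows were also searched on both strands for the E-box CACGTG (6.02% of windows), the D-box TTATGTAA (0.819%), the AHR core GCGTG (28.2%), the AP-1 site TGANTCA (6.75%) and the NRF-1 site (0.782%), and the 3 windows printed hold none of these. Of the members without a value, the Nr1i3 window holds 1 E-box and 1 AP-1 match and the Por window 3 AHR cores. A second start of Rxra has 2 hexamers, and a second start of Alas1 has 1 AHR core and 1 NRF-1 match.

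Nr1h4 maps to chr10:89454234-89533645. Its log2 level was 9.57, 9.63 and 9.54 in the 3 livers labelled control at 52 weeks and 8.53, 8.45 and 8.96 in the NEMO/JNKΔhepa livers. After DEN it was 9.99, 9.42 and 9.47 in livers labelled control and 9.53, 9.33 and 9.61 in JNKΔhepa. After BDL the livers labelled control had 8.83, 9.08 and 9.14 and the JNKΔhepa livers 8.62, 8.71 and 8.62. At 8 weeks the NEMO livers had 8.82, 8.79 and 9.19 and the NEMO/JNK1Δhepa livers 9.34, 8.59 and 9.29. The bile acid receptor was thus highest in the 3 groups of livers with the means 9.63 (control, DEN), 9.58 (control, 52 weeks) and 9.49 (JNKΔhepa, DEN). It was lowest in JNKΔhepa after BDL and in NEMO/JNKΔhepa at 52 weeks, both with a mean of 8.65. In that order every group overlapped its neighbour, except that each NEMO liver at 8 weeks was above each JNKΔhepa liver after BDL.

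Nr1i2 maps to chr16:38248349-38294849. At 52 weeks its level was 7.94, 8.24 and 8.50 in livers labelled control and 8.20, 8.32 and 7.84 in NEMO/JNKΔhepa, and these ranges overlap. After DEN it was 8.48, 8.24 and 8.42 in livers labelled control and 7.90, 7.19 and 8.16 in JNKΔhepa. After BDL it was 8.66, 9.04 and 8.54 against 8.08, 8.07 and 8.05. Every JNKΔhepa liver was below every liver labelled control of its own injury. Of all genes, 9.47% did not overlap between the groups after DEN and 20.7% after BDL. At 8 weeks the NEMO livers had 9.09, 9.19 and 8.44 and the NEMO/JNK1Δhepa livers 8.24, 7.89 and 8.52, with 1 liver of each group crossing into the other's range. PXR ran from a mean of 8.91 in NEMO livers at 8 weeks to 7.75 in JNKΔhepa livers after DEN, and BDL controls were the only group with no overlap with the next in that order (control, DEN).

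Alas1 maps to chr9:106233455-106247954. Its level at 52 weeks was 10.12, 10.70 and 10.08 in livers labelled control and 11.56, 11.77 and 11.23 in NEMO/JNKΔhepa. It was 11.47, 11.25 and 10.73 against 11.11, 10.76 and 11.01 after DEN. It was 11.24, 11.60 and 10.63 against 11.29, 11.07 and 11.08 after BDL. At 8 weeks it was 11.22, 11.74 and 10.67 in NEMO and 10.74, 10.69 and 10.31 in NEMO/JNK1Δhepa livers. The 52-week experiment thus held both ends of the order of group means, 10.30 in livers labelled control and 11.52 in the knockout, and the groups between 10.96 and 11.52 all overlapped their neighbours. JNKΔhepa livers after DEN were all above NEMO/JNK1Δhepa livers.

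Ahr (chr12:35497979-35534989) had 8.47, 8.10 and 7.98 in livers labelled control at 52 weeks and 8.67, 8.66 and 8.66 in NEMO/JNKΔhepa, with no overlap. Its group means ran from 8.18 in those controls to 9.13 in JNKΔhepa livers after BDL, and every group overlapped its neighbour in the order. Nr1h3 (chr2:91184061-91202829) varied least between groups relative to its spread within them: the SD of the 8 group means was 0.16 and the pooled SD within groups 0.26. Its highest and lowest livers were 9.88, in replicate 2 of NEMO/JNK1Δhepa, and 8.67, in a BDL control. Rxra (chr2:27676445-27763319) kept between 9.25 and 10.06 in all 24 livers. Its group means were highest in DEN controls (9.96) and lowest in NEMO/JNK1Δhepa livers (9.43), each group overlapping the next.

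**Figure D1:**
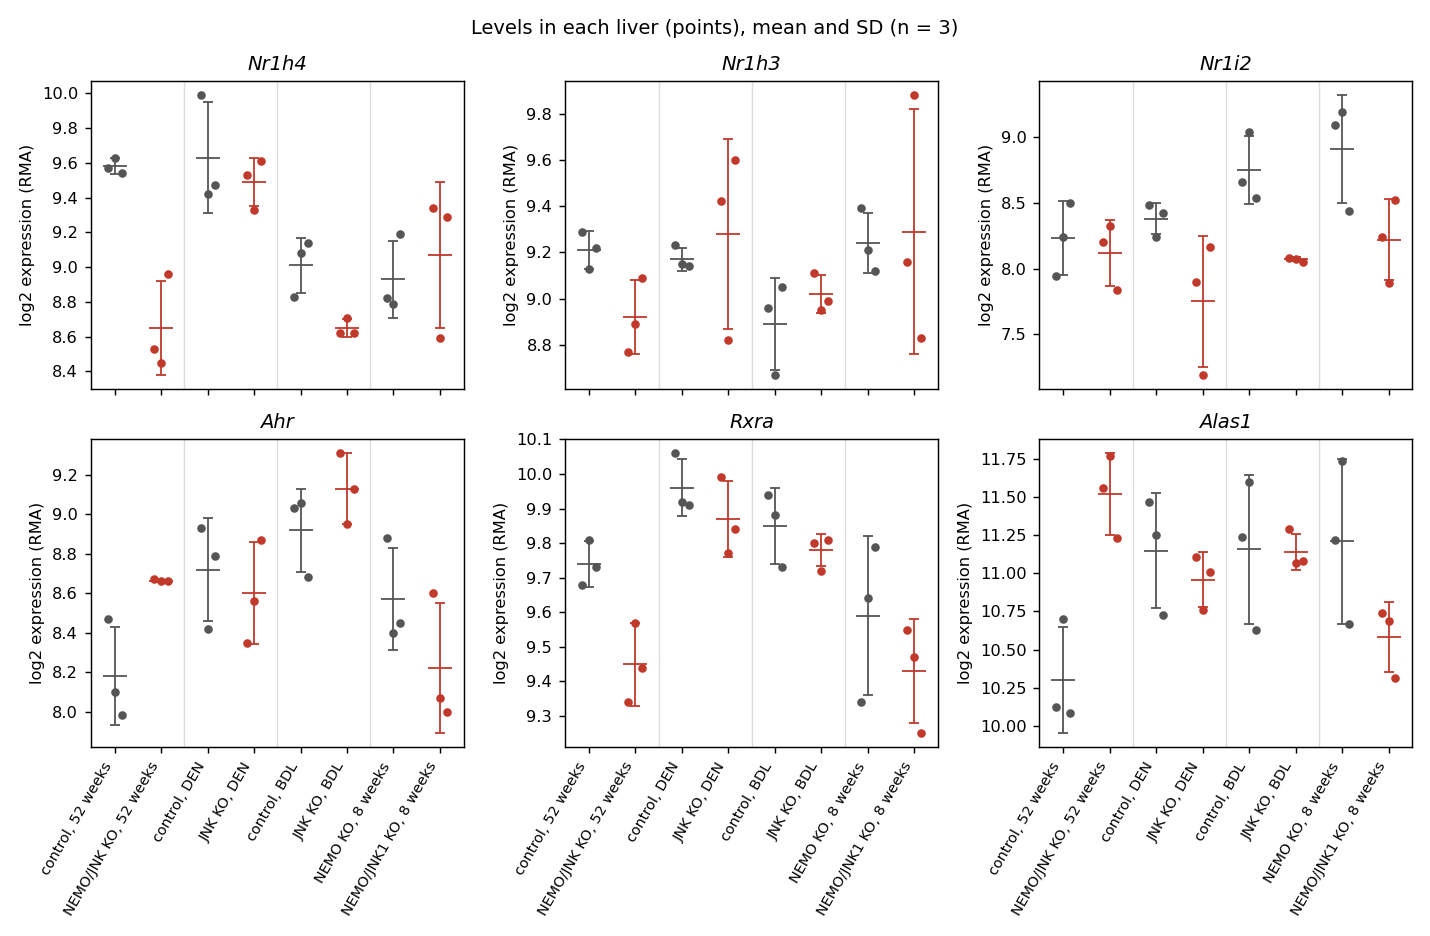
Log2 RMA levels of the 6 measured members in each of the 24 livers (points) with the mean and SD of each group of 3 (bars), grey for the comparison group and red for the knockout of each experiment; the log2 axes do not start at 0 and differ between panels. All measured members but Nr1i2 separate completely at 52 weeks, among them Nr1h4 (8.45 to 8.96 against 9.54 to 9.63) and Alas1 (11.23 to 11.77 against 10.08 to 10.70). Nr1i2 separates after DEN, and both Nr1i2 and Nr1h4 separate after BDL. Of all genes, 41.2% separate at 52 weeks, 9.47% after DEN and 20.7% after BDL.

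At 52 weeks, the bile acid receptor fell and the haem synthesis enzyme rose in NEMO/JNKΔhepa livers. Nr1h4 was 8.65 ± 0.27 in NEMO/JNKΔhepa and 9.58 ± 0.05 in livers labelled control (SD, n = 3 each), a difference of -0.93 (SE 0.15, 95% interval -1.27 to -0.59, 1.91-fold lower, limma adjusted p = 0.00314). Alas1 was 11.52 ± 0.27 against 10.30 ± 0.35, 2.33-fold higher (1.22, SE 0.20, adjusted p = 0.0035). Both calls held without any of the 6 livers in turn, with adjusted p of 0.0026 to 0.0141 for Nr1h4 and 0.00169 to 0.0174 for Alas1. Ahr rose by 0.48 (SE 0.14, adjusted p = 0.0446), but without any of 5 of the 6 livers (each NEMO/JNKΔhepa liver and control replicates 2 and 3) that call was lost (adjusted p = 0.0948 to 0.132), and with arrays centred on their medians the difference was 0.16 (adjusted p = 0.398).

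The other measured members did not pass. Nr1h3 differed by -0.30 (adjusted p = 0.132), Rxra by -0.29 (adjusted p = 0.112) and Nr1i2 by -0.11 (adjusted p = 0.698). With arrays centred on their medians, Nr1h3 and Rxra were both at -0.62 and were called (adjusted p = 0.00693 and 0.00545). Centring also moved the median of all genes from -0.05 to -0.37. Most of the 18820 genes were then called, and most of those were lower. The centred calls of these members, and the centred counts of the lists below, therefore do not stand out from that shift by themselves. Without centring, 3 of 6 members were called, beside 21.5% of the 18820 genes (13.6% higher and 7.9% lower). The groups did not overlap for 5 of 6, beside 41.2% of all genes.

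**Figure D2:**
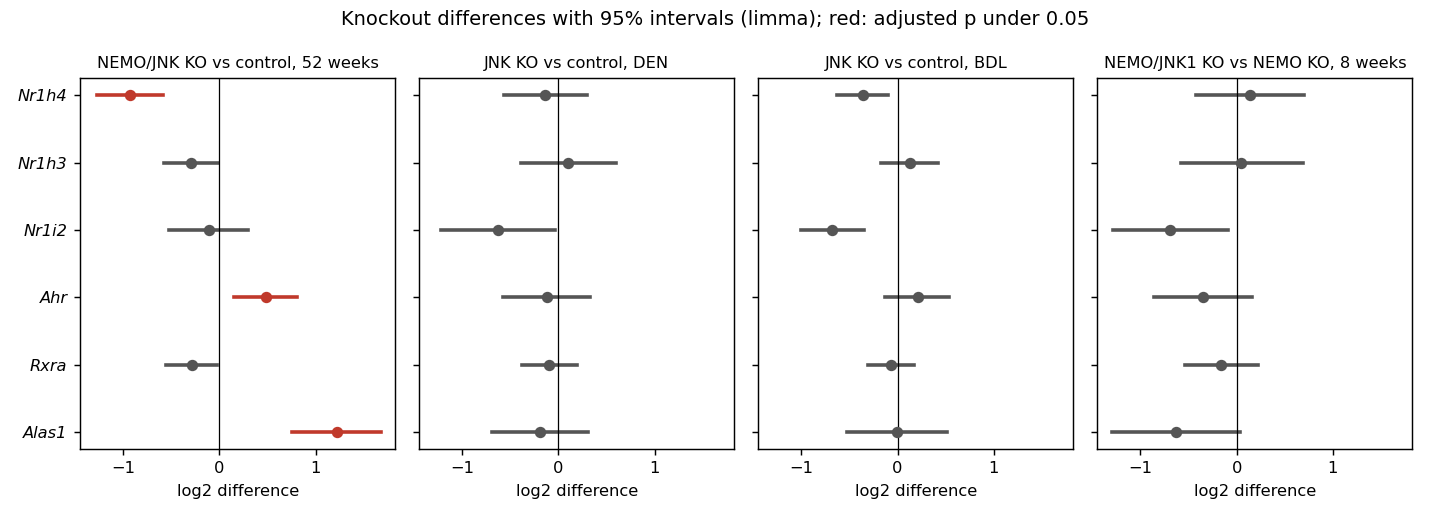
Log2 difference of each measured member (points) with its 95% interval from limma (lines) in the 4 genotype comparisons; red marks an adjusted p under 0.05. Nr1h4 (-0.93), Ahr (0.48) and Alas1 (1.22) are called at 52 weeks and no member is called in the other comparisons; Nr1i2 lies at -0.63, -0.68 and -0.69 after DEN, after BDL and at 8 weeks.

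Genes around the bile acid receptor moved in both directions at 52 weeks. Of 9 measured FXR targets, 3 rose and 2 fell, with a median difference of 0.05 (-0.28 after centring, with 1 higher and 4 lower). Slc51b, the beta subunit of the basolateral bile acid exporter OST, was 4.21, 5.43 and 4.67 in livers labelled control and 8.44, 8.47 and 7.75 in NEMO/JNKΔhepa. It rose 11-fold (3.46, SE 0.31, adjusted p = 0.000189). Baat, which conjugates bile acids to amino acids, fell from 9.56 ± 0.17 to 8.16 ± 0.17 (difference -1.41, adjusted p = 0.000335), and Apoc2, an activator of lipoprotein lipase, rose by 0.69 (adjusted p = 0.0135). Nr0b2 was 7.94 ± 0.64 and 7.13 ± 0.27 with overlapping ranges (-0.82, adjusted p = 0.0781), and Abcb11, the canalicular bile salt export pump, was 10.86 and 10.91 (adjusted p = 0.885).

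Genes of bile acid synthesis and uptake that FXR signalling represses did not rise: 0 of 5 passed upward and 3 fell (median -0.59). Cyp8b1, the sterol 12alpha-hydroxylase of bile acid synthesis, was 10.16, 9.72 and 10.02 in livers labelled control and 7.17, 8.54 and 6.94 in the knockout, 5.35-fold lower (-2.42, SE 0.37, adjusted p = 0.00231). The bile acid uptake transporters Slc10a1 and Slco1b2 fell by 0.67 and 0.59 (adjusted p = 0.0222 and 0.0287). Cyp7a1, the rate-limiting enzyme of the classic synthesis pathway, was 7.56 ± 0.36 and 8.21 ± 0.49 and did not pass (0.65, adjusted p = 0.112).

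Targets of the xenobiotic receptors showed no common direction at 52 weeks. Of 12 CAR targets, 3 rose and 1 fell (median -0.62). With arrays centred on their medians 3 rose and 5 fell. Cyp2a5, the mouse coumarin 7-hydroxylase, rose from 10.19, 10.68 and 10.61 to 11.54, 11.87 and 11.78 (1.23, SE 0.16, adjusted p = 0.00118), and the glutathione transferase Gstm3 rose by 0.98 (adjusted p = 0.0228). The third, Cyp2b10, which the naming rule leaves out and which was chosen after its values were seen, rose by 1.85 (adjusted p = 0.0466). Its ranges overlapped. The P450 Cyp2c54 fell by 1.24 (adjusted p = 0.0153). Of 10 PXR targets, 1 rose and none fell (median 0.14, and -0.18 with 2 lower after centring). It was Abcb1a, the drug efflux pump P-glycoprotein, at 5.01, 5.83 and 5.29 in livers labelled control and 8.82, 8.64 and 8.49 in the knockout (3.27, 9.66-fold, adjusted p = 4.35e-05). Cyp3a11, the main hepatic PXR-induced P450 of the mouse, was 12.03 ± 0.10 and 11.95 ± 0.10 (adjusted p = 0.657).

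LXR targets were the receptor list with the most genes called higher and none lower at 52 weeks, 6 of 11 (median 0.53; 4 higher and 2 lower after centring). The cholesterol exporters Abcg1 and Abcg5 rose by 1.88 and 1.85 (adjusted p = 0.000267 and 0.000478), and lipoprotein lipase, Lpl, rose from 6.48, 8.22 and 6.39 to 10.32, 10.49 and 10.23 (3.32, adjusted p = 0.001). Of 6 AHR targets, 2 rose: Cyp1b1 by 1.68 (adjusted p = 0.000875) and Nqo1, a quinone reductase that is also an NRF2 target, by 1.20 (adjusted p = 0.0151). After centring 2 others fell. The hepatic AHR targets Cyp1a1 and Cyp1a2 differed by 0.02 and 0.03 (adjusted p = 0.939 and 0.941), with Cyp1a1 at 3.44 and 3.46.

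Among 11 other RXR isoforms and RXR partners, 3 rose and 5 fell: the vitamin D receptor Vdr rose by 1.64 (adjusted p = 0.000251), the thyroid hormone receptor Thrb fell by 1.38 (adjusted p = 0.000478), and the retinoic acid receptor Rara rose by 0.73 (adjusted p = 0.0104). Of 8 cofactors and chaperones 6 did not pass, so that the share called was near the 21.5% of all genes. The coactivator Ppargc1a rose by 0.91 (adjusted p = 0.0151) and Hsp90aa1, a chaperone that holds AHR in the cytosol, fell by 0.66 (adjusted p = 0.0189). Of 9 hepatocyte transcription factors, only Cebpa passed, falling by 0.73 (adjusted p = 0.016). After centring 7 of the 9 passed, as did most of all genes. Of 8 acute phase genes only the cytokine signalling inhibitor Socs3 passed, rising by 1.60 (adjusted p = 0.00392); after centring 2 others fell.

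Alas1 was set beside other genes of its pathway at 52 weeks. Of 10 measured genes of haem synthesis and breakdown, 1 rose, 4 fell and 5 did not pass (median -0.21; 1 and 7 after centring). The erythroid isoform Alas2 was 9.03, 9.29 and 9.26 in livers labelled control and 7.63, 6.99 and 7.45 in the knockout (-1.84, adjusted p = 0.000267). Urod, uroporphyrinogen decarboxylase, fell by 0.66 (adjusted p = 0.00448), and Hmox1, haem oxygenase 1, which breaks haem down, rose by 1.29 (adjusted p = 0.0127). Fech, the last enzyme of synthesis, was 8.74 in both groups (adjusted p = 0.965). A further list held electron donors of the P450s and related proteins, of which 5 were measured (Cyb5a, Cyb5b, Cyb5r3, Fdx1 and Pgrmc1). Cyb5b, outer mitochondrial cytochrome b5, fell by 1.51 (adjusted p = 0.00031) and the others did not pass. After centring 4 of the 5 fell, at a setting where most of all genes were called and mainly lower.

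Clock genes moved beside Alas1 at 52 weeks, 11 of 15 passing: 6 rose and 5 fell (4 and 6 after centring). Arntl (BMAL1), the positive limb of the clock, fell from 7.46 ± 0.11 to 6.10 ± 0.19 (-1.36, adjusted p = 0.000338). The repressors Nfil3 and Cry1 fell by 2.05 and 0.79 (adjusted p = 0.00108 and 0.00222). The time of day at which livers were taken was not given in the sources used here, and the part of the clock genes in the Alas1 result was not tested.

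**Figure D3:**
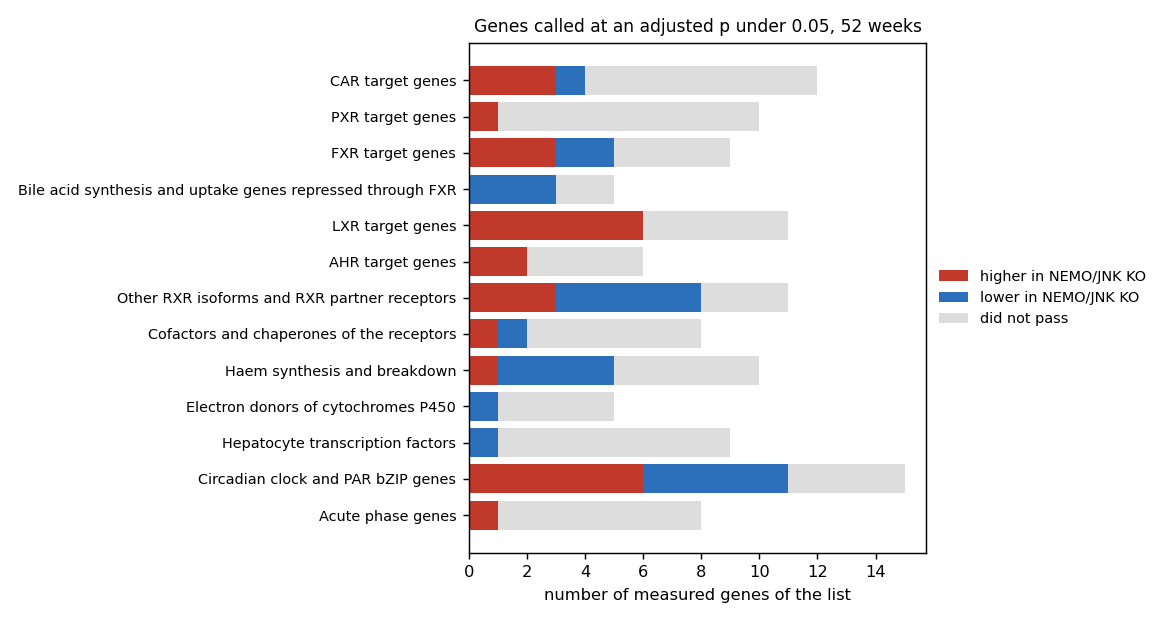
Number of measured genes in each of the 13 pathway lists that were called higher (red), lower (blue) or did not pass (grey) in NEMO/JNKΔhepa against control livers at 52 weeks, at an adjusted p under 0.05. LXR targets have 6 higher and 0 lower of 11, bile acid synthesis and uptake genes 0 higher and 3 lower of 5, and clock genes 6 higher and 5 lower of 15; several of these splits move with centring, as stated in the text.

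Other cell types moved with these groups. All 9 measured cholangiocyte markers rose at 52 weeks (median 3.60), and their mean level was 7.83 to 8.47 in the knockout livers against 4.52 to 5.17. Macrophage markers rose in 8 of 10 (8.73 to 10.06 against 7.85 to 8.36) and lymphocyte markers in 4 of 7 (5.33 to 6.31 against 4.31 to 5.48). Male-biased liver genes fell in 9 of 10 (6.97 to 7.57 against 9.19 to 10.46). Neutrophil markers rose in 1 of 4, and stellate and endothelial markers had 1 higher and 1 lower each. The mean of 11 hepatocyte markers was 12.19 to 12.33 against 12.21 to 12.45, with 2 of them lower. In whole liver, fewer cells of a type and less RNA per cell cannot be told apart, and the part of these cell types in the values of the members and their targets was not tested.

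After DEN, PXR was the member that differed most. Nr1i2 was 7.75 ± 0.50 in JNKΔhepa and 8.38 ± 0.12 in livers labelled control (SD, n = 3 each), a difference of -0.63 (SE 0.25, 95% interval -1.22 to -0.04) at the 96.4th percentile of all genes by size. It did not pass (limma adjusted p = 0.985, unadjusted p = 0.0387). None of 6 members was called, nor was any of the 18820 genes (0%), of which 781 had an unadjusted p under 0.05. The groups did not overlap for 1 of 6 members, beside 9.47% of all genes. The other 5 members lay between -0.19 (Alas1) and 0.10 (Nr1h3). Without replicate 3 of JNKΔhepa, whose Xist and Y-linked levels differ from the rest, Nr1i2 was at -0.84 (interval -1.42 to -0.26, adjusted p = 0.997), Ahr at -0.26, Alas1 at -0.22, Nr1h4 at -0.20, Rxra at -0.08 and Nr1h3, with its sign turned, at -0.06. None was called and no gene was.

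Replicate 2 of JNKΔhepa, the liver with the lowest Nr1i2 (7.19), also had the highest level of the cholangiocyte and progenitor marker Epcam in that group, 8.81 against 4.26 and 5.33, and a hepatocyte marker mean below the 12.42 and 12.45 of the other livers. Without it Nr1i2 differed by -0.35. The mean of the 9 cholangiocyte markers was 5.09 to 7.25 in JNKΔhepa and 4.73 to 5.47 in livers labelled control, and all livers of both groups but replicate 2 of JNKΔhepa lay between 4.73 and 6.05. Of these markers 8 of 9 had positive differences (median 1.24, and 1.21 without replicate 3), with Tspan8 at -1.77. Krt7, Krt19, Cftr and Muc1 were higher in every JNKΔhepa liver than in every liver labelled control, and the other markers overlapped. Lymphocyte markers had 7 of 7 positive differences (median 0.77, and 0.66 without replicate 3) and endothelial markers 0 of 7 (-0.25 and -0.35). Macrophage markers had 9 of 10 positive (median 0.43, and 0.21 without replicate 3) and neutrophil markers 4 of 4 (0.64 and 0.36). For stellate and fibroblast markers it was 7 of 9 (0.53 and 0.58). The part of these cell types in the Nr1i2 difference was not tested. No gene of the 13 pathway lists was called. CAR targets had a median of 0.19 and PXR targets of -0.08, beside -0.02 for all genes. Without replicate 3 these medians were -0.03 and -0.26, beside -0.02. The 2 PXR targets with the smallest p were the exporter Abcc3 (-0.32, adjusted p = 0.985) and Cyp3a13 (-0.30, adjusted p = 0.985), at -0.40 and -0.44 without that liver (adjusted p = 0.997 each).

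After BDL, both PXR and FXR had lower values in JNKΔhepa livers, in each case with no overlap, and neither passed. Nr1i2 was 8.07 ± 0.015 against 8.75 ± 0.26 (SD, n = 3 each), a difference of -0.68 (SE 0.14, 1.6-fold lower, limma adjusted p = 0.0718). The adjusted p was 0.036 with a trended robust variance prior, 0.0397 with array weights and 0.0344 without replicate 3 of the controls. Nr1h4 was 8.65 ± 0.054 against 9.01 ± 0.16 (-0.36, SE 0.12, adjusted p = 0.198). No member was called, beside 1.35% of all genes (0.797% higher and 0.558% lower), and 2 of 6 did not overlap, beside 20.7%. Alas1 was 11.14 and 11.16 on average, with an interval of -0.53 to 0.51.

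Controls 1 and 2 after BDL carry mouse identifiers of another number series than control 3 and the knockouts. Within the shared series, Nr1i2 was 8.54 in control 3 and 8.05 to 8.08 in the 3 knockouts, and Nr1h4 was 9.14 against 8.62 to 8.71. With the identifier series as a block the differences were -0.47 for Nr1i2 (adjusted p = 0.333) and -0.48 for Nr1h4 (adjusted p = 0.256).

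Among the targets after BDL, Gstm3 fell from 12.22, 12.10 and 12.68 to 10.65, 10.90 and 11.18 (-1.42, SE 0.19, adjusted p = 0.0151) and Cyp2c29, another P450 on the CAR list, rose from 8.71, 9.42 and 9.64 to 10.54, 10.90 and 10.82 (1.50, SE 0.23, adjusted p = 0.026). These were the 2 of 12 CAR targets that passed. Abcb1a fell by 1.00 (SE 0.12, adjusted p = 0.0101), the only PXR target of 10 to pass, and Baat fell by 0.62 (SE 0.11, adjusted p = 0.0402), the only FXR target of 9. The cholesterol exporter Abcg8 rose by 0.96 (SE 0.11, adjusted p = 0.00824), 1 of 11 LXR targets. Among RXR partners the lipid receptor Pparg fell by 0.76 (adjusted p = 0.0374), 1 of 11, and among acute phase genes the serum amyloid Saa3 rose by 2.71 (adjusted p = 0.00292), 1 of 8. In the other 7 pathway lists none passed. With the identifier series as a block fewer genes were called, and the targets here and the markers below were not examined under it. Gstm3 and Abcb1a thus had opposite signs in the 52-week and BDL comparisons, which share no livers; that difference was not tested.

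Markers of other cell types moved after BDL as well. Cholangiocyte markers had 1 of 9 called higher, Muc1 (2.55, limma adjusted p = 0.0104), and 8 of 9 positive (mean level 6.43 to 7.14 in JNKΔhepa against 5.63 to 6.36). Neutrophil markers had no gene called, but 4 of 4 were positive (median 0.82) and their mean level did not overlap (6.90 to 7.27 against 5.71 to 6.81). Of the stellate and fibroblast markers, the contractile actin Acta2 rose by 1.35 (adjusted p = 0.0276) and the retinol esterifying enzyme Lrat fell by 1.49 (adjusted p = 0.0105). The endothelial marker Lyve1 fell by 1.69 (adjusted p = 0.0207), whereas 6 of the 7 endothelial markers had positive differences (median 0.30). The macrophage marker Lyz2 rose by 0.61 (adjusted p = 0.0382), with 7 of 10 macrophage markers positive (median 0.19). Muc1, Acta2, Lrat, Lyve1 and Lyz2 were named as the called markers of their lists. The part of these cell types in the values of the members and targets was not tested.

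At 8 weeks, where both arms are labelled NEMO knockouts, PXR and Alas1 had the lowest values relative to their comparison group. Nr1i2 was 8.22 ± 0.31 in NEMO/JNK1Δhepa and 8.91 ± 0.41 in NEMO livers (SD, n = 3 each), a difference of -0.69 (SE 0.25, 95% interval -1.29 to -0.09, limma adjusted p = 0.609, unadjusted p = 0.0293). Alas1 was 10.58 ± 0.23 against 11.21 ± 0.54 (-0.63, SE 0.28, adjusted p = 0.647). No member was called, and no gene of 18820 was (0%), with 1442 at an unadjusted p under 0.05. The range of each member overlapped between the groups, beside 14.4% of all genes that did not. All NEMO livers carry identifiers of a different number series from the NEMO/JNK1Δhepa livers, so that series and genotype cannot be told apart.

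The targets of PXR and CAR had negative differences at 8 weeks throughout: 0 of 12 CAR targets and 0 of 10 PXR targets had a positive value, with medians of -0.88 and -0.76 beside -0.00 for all genes. After a further quantile normalisation 1 CAR target was positive. None passed. The P450 Cyp2c55 was 8.73, 6.94 and 7.85 in NEMO livers and 5.12, 4.69 and 3.97 in NEMO/JNK1Δhepa (-3.25, SE 0.49, adjusted p = 0.388), and the glutathione transferase Gstt3 was 8.65, 8.79 and 7.92 against 7.11, 5.89 and 6.17 (-2.06, SE 0.37, adjusted p = 0.544). The PXR targets Cyp3a25 and Cyp3a44 differed by -1.09 and -1.76 (adjusted p = 0.544 and 0.602). All 4 of these genes had no overlap between groups, beside 14.4% of all genes. They were named for the smallest p of their lists, and other genes of both lists overlapped. Of 9 FXR targets 1 was positive (median -0.45), of 11 LXR targets 9 were (median 0.28), and of 6 AHR targets 3 were (median -0.01).

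Replicate 2 of NEMO/JNK1Δhepa had the neutrophil marker S100a8 at 8.46 against 5.09 and 3.75 in its group, a macrophage marker mean of 10.89 against 9.59 and 8.13, the lowest Nr1h4 (8.59) and the highest Nr1h3 (9.88). Over the group, macrophage markers had 10 of 10 positive differences (median 0.73), lymphocyte markers 7 of 7 (median 0.59) and neutrophil markers 4 of 4 (median 1.10), with ranges that overlapped between the groups for macrophages (8.13 to 10.89 against 8.55 to 8.95). Male-biased liver genes had 2 of 10 positive (median -1.02) and female-biased liver genes 1 of 5 (median -0.99). All of these 5 but Cux2 (0.07) are also on the CAR or PXR target lists (Cyp2b9, Cyp2b13, Cyp3a16 and Cyp3a44). The female-biased list is thus not separate from those targets. None of these markers was called, and their part in the values of the members and of the PXR and CAR targets was not tested.

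**Figure D4:**
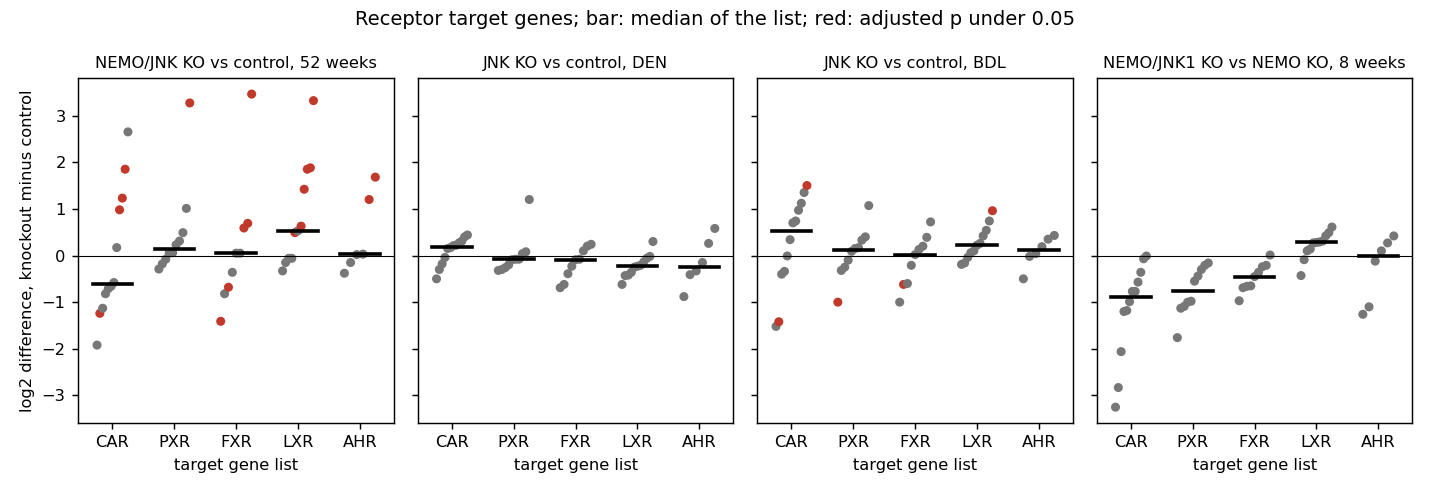
Log2 difference of each measured target gene of CAR, PXR, FXR, LXR and AHR (points) in the 4 genotype comparisons, with the median of each list (bar); red marks an adjusted p under 0.05. At 52 weeks red points lie on both sides of 0, after DEN and at 8 weeks there are none, and at 8 weeks all CAR and PXR points lie below 0.

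The knockout effects after BDL and after DEN were set against each other over their 12 livers. The PXR differences of -0.68 and -0.63 differed by -0.04 (SE 0.30, 95% interval -0.71 to 0.62, limma adjusted p = 0.984). The difference between effects was -0.23 for Nr1h4 (interval -0.71 to 0.26) and 0.33 for Ahr (interval -0.22 to 0.88). No member was called, beside 0.0478% of all genes (9 genes), nor was any gene of the 13 pathway lists. Without replicate 3 of JNKΔhepa after DEN the PXR value turned to 0.16 (interval -0.45 to 0.77), and those of Nr1h4 and Ahr were -0.16 (interval -0.69 to 0.36) and 0.46 (interval -0.09 to 1.01), with none called.

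Livers labelled control were also compared between the injuries, BDL against DEN. These livers serve in the genotype comparisons too, and the durations differ. The BDL controls other than replicate 3 carry mouse identifiers of another number series than the DEN controls, and the part of that series was not tested. FXR was lower after BDL, at 9.01 ± 0.16 against 9.63 ± 0.32 (SD, n = 3 each), with no overlap (-0.62, SE 0.18, limma adjusted p = 0.122). Nr1i2 was higher (0.37, adjusted p = 0.256) and Nr1h3 lower (-0.28, adjusted p = 0.301), also with no overlap. None of 6 members was called, beside 2.48% of all genes (1.74% higher and 0.739% lower), and 3 of 6 did not overlap, beside 24.9%. Of 12 CAR targets 4 were called, all lower, among them the P450s Cyp2c37 (-4.05, adjusted p = 0.00316), Cyp2c54 (-2.55) and Cyp2c29 (-2.17). Slc51b was the only one of 9 FXR targets called, at 5.48 ± 0.69 after DEN and 8.33 ± 0.40 after BDL (2.85, adjusted p = 0.0136). The fatty acid receptor Ppara was lower by 1.05 on the log2 scale (adjusted p = 0.021). Stellate cell and fibroblast markers were higher in 7 of 9 (mean level 8.23 to 8.75 after BDL against 6.54 to 6.71). Cholangiocyte markers were higher in 3 of 9 (5.63 to 6.36 against 4.73 to 5.47) and macrophage markers in 1 of 10, with 10 of 10 positive (9.22 to 9.39 against 8.50 to 8.99). Neutrophil markers had none called and 4 of 4 positive (5.71 to 6.81 against 4.55 to 5.48), and endothelial markers had 1 of 7 lower (8.11 to 8.23 against 8.39 to 8.68). The part of these cell types in the FXR, Slc51b and other values was not tested.

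Since Nr1i2 had a lower mean in the knockout in each of the 4 genotype comparisons, which share no livers, the mean of the 4 differences was estimated over all 24 arrays. This estimate was chosen after the separate values were seen. It averages unlike contrasts: NEMO/JNKΔhepa against control at 52 weeks, JNKΔhepa against control after DEN and after BDL, and NEMO/JNK1Δhepa against NEMO at 8 weeks. In the last, identifier series and genotype cannot be told apart. The average is therefore not the effect of a single genotype. PXR was lower by 0.53 on the log2 scale on average (1.44-fold, SE 0.12, 95% interval -0.77 to -0.28, limma adjusted p = 0.0126), lower in 4 of 4 experiments. At 52 weeks that sign was not stable: Nr1i2 was at 0.03 without replicate 3 of the knockout and likewise without replicate 3 of the controls. FXR was lower by 0.32 (SE 0.09, adjusted p = 0.0419), lower in 3 of 4. These 2 of 6 members were called beside 7.44% of all genes (4.99% higher and 2.45% lower). Rxra was lower in 4 of 4 experiments without passing (-0.16, adjusted p = 0.0999); it passed after centring (-0.28, adjusted p = 0.0108) and without NEMO replicate 1 at 8 weeks (-0.19, adjusted p = 0.0434). The averages of Nr1h3, Ahr and Alas1 were -0.00, 0.05 and 0.10. The targeted gene Mapk8 averaged -0.79 by the same estimate.

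The PXR average passed without any single liver (adjusted p = 0.0051 to 0.027), including without the DEN knockout liver that stands apart (-0.58, adjusted p = 0.0082; FXR -0.34, adjusted p = 0.0463). It did not pass without the 52-week experiment (-0.67, adjusted p = 0.0553) or without the BDL experiment (-0.48, adjusted p = 0.0604). It passed without the DEN experiment (-0.49, adjusted p = 0.0184) and without the 8-week experiment (-0.47, adjusted p = 0.0311). The FXR average rested on the 52-week experiment: without it the value was -0.12 (adjusted p = 0.73). It was also lost without the BDL experiment (-0.31, adjusted p = 0.117) and without any of 14 of the 24 livers in turn (adjusted p = 0.0546 to 0.0766). These were all livers at 52 weeks but knockout replicate 3, control 1 and knockout 2 after DEN, controls 2 and 3 and all knockouts after BDL, and NEMO replicate 3 and NEMO/JNK1Δhepa replicate 2 at 8 weeks.

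The members varied largely apart from each other over the 24 livers. Among the 15 pairs, Pearson's r was largest in size for Ahr and Alas1, at 0.54, and for Nr1h4 and Rxra, at 0.48. Over deviations from the group means these fell to 0.20 and 0.15. Within groups the largest value was that of Nr1i2 and Alas1, at 0.48. These values are descriptions, since livers share groups and a common normalisation.

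By Pearson's r over the 24 arrays, the genes most like Nr1h4 were Acad11 (0.89), Elmod3 (0.89) and Acss3 (0.88). Those most like Nr1i2 were Baiap2l1 (0.87), Glt1d1 (0.84) and Acp1 (0.83), and within groups these r were 0.81, 0.83 and 0.78. Ahr was most like Plagl1 (0.77) and the metallothioneins Mt2 (0.76) and Mt1 (0.75), metal-binding proteins, with within-group r of 0.53, 0.34 and 0.28. Alas1 was most like Gskip, Zbtb1 and Kremen1 (0.79 each), Rxra most like Ecpas (0.87), Copb1 (0.85) and Hectd3 (0.83), and Nr1h3 most like Nat8l (0.70), Helz2 (0.70) and H2-T24 (0.69).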

How the data were processed

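The deposited values are log2 expression levels per probe set, which the authors obtained by RMA (per the submitters' processing notes). This method corrects background, normalises probe quantiles and summarises probes, so that log2 differences of dim genes are compressed. Which arrays were normalised together, and with which chip definition, is not given. Values ran from 0.68 to 13.48, and array medians from 4.52 to 4.66. Of 35556 probe sets, 21218 had 1 symbol in the probe table, 1881 several and 12457 none; 21185 matched RefSeq (GRCm38.p6) by Entrez identifier. They stood for 18820 genes, each by its probe set with the highest mean, and none were filtered. Promoter windows are RefSeq's; Ahr had no entry.

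Comparisons used limma 3.58.1 under R 4.3.3 (lmFit, eBayes, two-sided, Benjamini-Hochberg over all genes, threshold 0.05), on the 6 arrays of each comparison, or on 12 arrays for the difference of effects. An exact test of 3 against 3 cannot go below p = 0.1. The fit was tested on simulated data. The number of arrays limits precision, and p-values measure the spread between these mice. The members, the 13 pathway lists and the 11 marker lists were chosen with earlier results of these data known. Genes named were the members, the targeted genes, the 3 called genes with the smallest p of each pathway list (2 values where none was called) and the 3 most like each member; others named are known targets given for their values. List values without replicate 3 of JNKΔhepa after DEN were added after seeing the data. Replicate numbers were not taken as pairs: identifiers differ, and in each comparison at least 1 same-numbered pair had a correlation of deviations of 0.1 or less. The highest were 0.36 and 0.30, for replicates 1 and 2 after DEN.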

Additional observations from a re-analysis of the deposited data

How the results depend on the processing

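Members kept direction and side of the threshold in 311 of 342 results under other settings and in 340 of 396 that left out 1 liver. The cause of the exceptions was not tested. Several settings could change only the p-value of a member and not its direction. They were the filter for dim genes, the fit of all 24 arrays, the trended prior, the mean of a gene's probe sets and the replicate block. Genes called at 52 weeks (4048) were 10512 with arrays centred on their medians (1570 higher, 8942 lower). After BDL the count (255) was 116 with all 24 arrays in the fit, 391 with array weights and 118 with the identifier series as a block; 1 member was called with array weights and 1 with a trended robust prior. At 8 weeks the count (0) was 57 with all 24 arrays and 2 with array weights. For the difference of effects (9) it was 5 over genes with a mean of 5 or more and 68 with array weights. For BDL against DEN in livers labelled control (466) it was 715 with all 24 arrays and 832 with array weights. For the mean of the 4 differences (1400) it was 5523 after centring, 2504 with array weights and 65 without the 52-week experiment. There, 1 member was called after quantile normalisation or with array weights, and 0 without the 52-week or the BDL experiment.

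With the replicate number as a block, which the mice do not share, the BDL count was 142, the BDL against DEN count 109, and the adjusted p of Ahr at 52 weeks 0.0581; the block changed no other call of a member. In the 52-week pairs every knockout liver correlated best with the control of its own number, at r of only 0.02, 0.04 and 0.02 for the deviations.

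Values that changed sign were these. With array weights, Nr1h4 was 0.00 and Ahr 0.10 after DEN, Nr1h3 -0.24 in the difference of effects and 0.05 in the mean of the 4. With the identifier series as a block after BDL, Nr1h3 was -0.03, Rxra 0.05 and Alas1 0.51. After centring, Nr1h3 was -0.04 at 8 weeks, Nr1i2 0.00 in the difference of effects, Alas1 -0.11 between injuries, and Ahr -0.07 and Alas1 -0.03 in the mean of the 4. In that mean Nr1h3 was 0.04 after quantile normalisation, and without the 52-week experiment Nr1h3 was 0.09, Ahr -0.09 and Alas1 -0.28.

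Leaving out 1 liver gave 2693 to 3671 genes at 52 weeks, 0 to 2 after DEN, 58 to 559 after BDL, 0 at 8 weeks, 2 to 26 for the difference of effects, 56 to 858 between injuries and 889 to 2332 for the mean of the 4. After BDL and between injuries each of the 6 livers moved the count by over 1.5 times. Members called were 2 to 3 at 52 weeks, 0 to 1 after BDL and 1 to 3 in the mean. Signs changed within these ranges: Nr1i2 at 52 weeks, -0.25 to 0.03; after DEN Nr1h4, -0.24 to 0.04, and Nr1h3, -0.06 to 0.33; Alas1 after BDL, -0.28 to 0.21; Nr1h3 at 8 weeks, -0.24 to 0.28. For the difference of effects they were Nr1i2, -0.32 to 0.16, Nr1h3, -0.21 to 0.18, Rxra, -0.04 to 0.09, and Alas1, -0.08 to 0.40. Alas1 between injuries ran from -0.21 to 0.27 and Nr1h3 in the mean from -0.08 to 0.05.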
